A study of Rattus norvegicus with 46 samples.

Results

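Left ventricles of rats with a myocardial infarction (MI) were compared at 9 weeks and at 3 weeks after the coronary artery was tied, beside the same interval in sham-operated rats. The comparison used 12 of the 46 arrays of the series. These were 4 arrays of infarcted hearts at 9 weeks (MI9-1 to MI9-4), 4 of infarcted hearts at 3 weeks (MI3-3 to MI3-6), 2 of sham hearts at 9 weeks (MI9-5 and MI9-6) and 2 of sham hearts at 3 weeks (MI3-1 and MI3-2), taken by their titles. All animals were male Wistar rats, and their ages at surgery were not given in the sources used here. In the infarcted groups the left anterior descending artery was occluded, and the sham groups had the same operation without an occlusion. The arrays hold the surviving muscle of large infarcts, without the scar. Each array carries RNA pooled from several animals, so the tests below are against the variation from pool to pool. The question was which genes change late after infarction, apart from those that change with time in sham hearts as well.

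After an infarction the lost muscle is replaced by a collagen scar laid down by activated fibroblasts, while macrophages clear the debris. The surviving muscle carries more load, enlarges and switches on genes of the fetal heart, among them those of the natriuretic peptides, which are secreted under wall stress. Such muscle is also known to burn less fatty acid than healthy myocardium. In tissue RNA, fewer cells of a type and less RNA per cell cannot be told apart.

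Values are log2 of the deposited intensity after raising it to at least 16, and a difference of 1 on this scale is a doubling. Median intensity was similar on the 12 arrays, from 1019 to 1084. MI9-1 and MI9-3 stood apart. Their mean correlation with the other 11 arrays was 0.974 and 0.971, against 0.981 to 0.986 for the other 10 arrays. The median SD of a probe set was 0.189 log2 among the infarcted hearts at 9 weeks and 0.117 among those at 3 weeks. For genes described by a difference in infarcted hearts, the value without these 2 arrays is added where it differs by more than 1.5 times. Small differences given without such a value may also depend on these 2 arrays. On every array 5 or 6 probe sets lay within 1% of that array's highest value, among them those of the cardiac contractile genes Tpm1, Tnni3 and Actc1, so a change in these genes could not be measured.

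The natriuretic peptides were far above sham hearts at both times after infarction, and no difference between the times passed the test. Nppa, the gene of atrial natriuretic peptide, read 15.43, 15.36, 15.29 and 14.95 log2 in MI9-1 to MI9-4, against 15.07, 15.19, 15.4 and 15.36 in MI3-3 to MI3-6. It read 12.6 and 12.61 in sham hearts at 9 weeks, against 13.01 and 12.98 at 3 weeks. All 8 infarcted arrays were above all 4 sham arrays and the infarcted groups of both times overlapped. Infarcted minus sham hearts gave 2.65 ± 0.224 (SE) at 9 weeks and 2.26 ± 0.224 at 3 weeks (limma adjusted p = 4.12e-09 and 2.2e-07). The difference between 9 and 3 weeks in infarcted hearts was 0 ± 0.183 with a 95% interval of -0.37 to 0.37. These levels lay 0.33 to 0.98 below the top of the scale in infarcted hearts at 9 weeks and 0.4 to 0.62 below it at 3 weeks, so a further increase had little room on the scale.

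Nppb, which encodes brain natriuretic peptide, had 14.67, 14.5, 14.16 and 13.94 log2 at 9 weeks and 14.24, 14.21, 14.43 and 14.39 at 3 weeks, a difference of 0 (95% interval -0.38 to 0.38). Acta1, skeletal alpha-actin, which the adult heart re-expresses under load, had 14.72, 13.83, 14.16 and 13.74 at 9 weeks and 14.1, 13.99, 13.91 and 14.11 at 3 weeks, a difference of 0.09 (-0.26 to 0.43). In both genes the 4 arrays of 9 weeks were spread on either side of those of 3 weeks. Without MI9-1 and MI9-3 the differences were -0.1 for Nppb and -0.24 for Acta1. Over the 15 measured natriuretic peptide and fetal heart genes (of 16 listed) the median difference was 0.05 log2 in infarcted and -0.03 in sham hearts, and the median infarction effect was 0.40 at 9 weeks and 0.34 at 3 weeks. No member was called between 9 and 3 weeks. The 3 atrial myocyte markers, Nppa among them, were the list that varied most between arrays of a group. Their median deviation from their mean over the 12 arrays was 0.52, 0.80, -0.31 and 0.05 in MI9-1 to MI9-4, against 0.08 to 0.26 in infarcted hearts at 3 weeks, and its part in the values of the fetal genes was not tested.

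**Figure D1:**
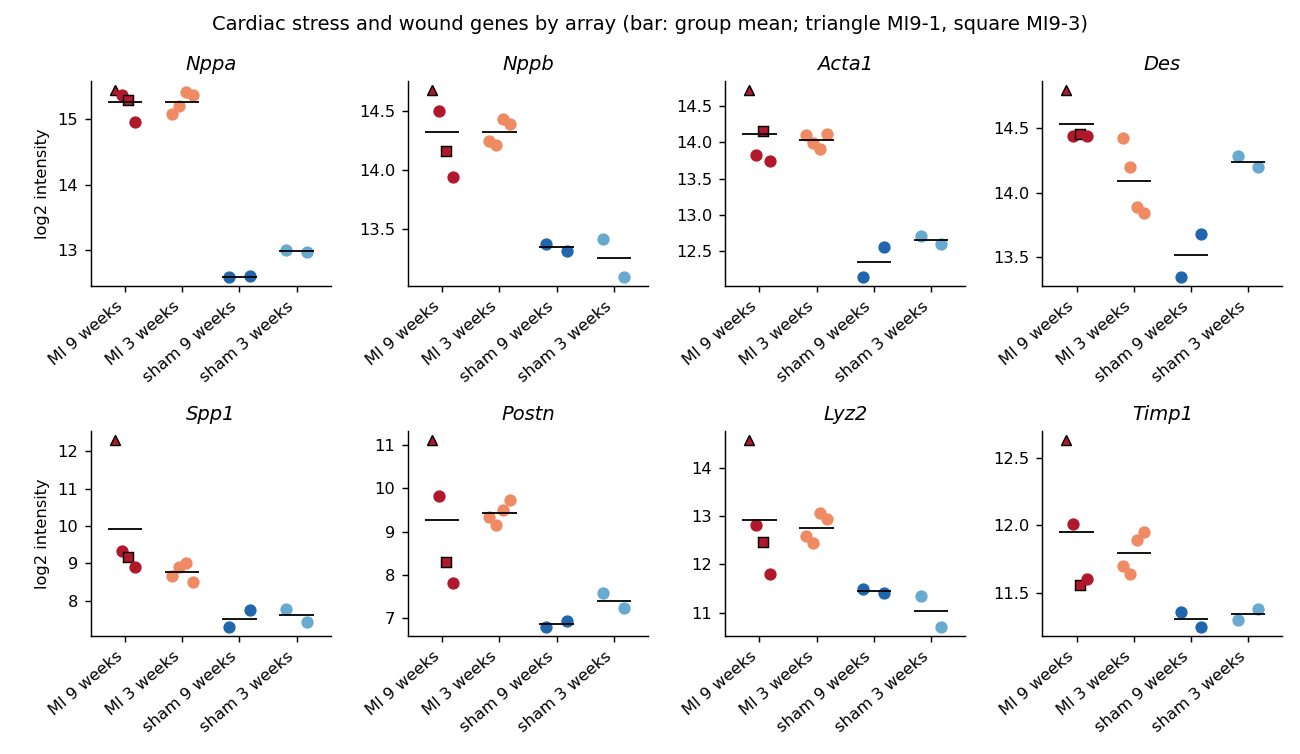
Log2 intensity on each of the 12 arrays for 4 cardiac load and muscle genes (upper row) and 4 matrix and macrophage genes (lower row), with a bar at each group mean. Nppa, Nppb and Acta1 overlap between both times after infarction, while Spp1, Postn, Lyz2 and Timp1 are highest in MI9-1 (triangle).

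Between 9 and 3 weeks the infarcted hearts differed in few genes. At a limma adjusted p below 0.05, 0 of 8740 probe sets were higher at 9 weeks (0%) and 2 were lower (0.0229%). At an unadjusted p below 0.05, 370 were higher (4.23%) and 447 lower (5.11%). These shares are the background for the counts at that level in the lists below. Among sham hearts 0 probe sets were called (0%), with 64 higher (0.732%) and 268 lower (3.07%) at an unadjusted p below 0.05. When arrays were weighted by their quality, 22 probe sets were called in infarcted and 2 in sham hearts. The median over all genes was -0.026 log2 in infarcted and -0.043 in sham hearts.

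Of the 2 probe sets called, both lower at 9 weeks, 1 has a gene symbol, that of the collagen gene Col1a1. Col1a1 encodes the main chain of type I collagen, the fibre that gives scar and interstitium their stiffness. It read 12.75, 13.04, 12.44 and 12.14 log2 in MI9-1 to MI9-4, against 13.5, 13.77, 14.07 and 13.44 in MI3-3 to MI3-6. Every array of 9 weeks was below every array of 3 weeks, as in 252 of 8740 probe sets (2.88%), while 138 (1.58%) had every array above. The difference was -1.1 ± 0.204 (adjusted p = 0.0317), which puts the 9-week level at 0.467 times that of 3 weeks. The sham arrays read 12.16 and 11.86 at 9 weeks, against 12.78 and 12.52 at 3 weeks, a difference of -0.64 ± 0.289 that was not called (adjusted p = 1). Col1a1 was 0.59 above sham at 9 weeks and 1.04 above sham at 3 weeks, and the difference of these effects was -0.46 ± 0.354 (adjusted p = 0.942). The effects share the infarcted and sham arrays with the differences over time.

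The other probe set called, U75405UTR#1_f_at, has no gene symbol in the annotation used. It read 12.92, 13.24, 12.8 and 12.41 at 9 weeks, against 13.6, 13.83, 14.18 and 13.67 at 3 weeks after infarction, and differed by -0.98 ± 0.179 (adjusted p = 0.0317). Sham hearts had 12.24 and 12.03 at 9 weeks, against 12.95 and 12.89 at 3 weeks. Thus both probe sets were lower at 9 weeks in infarcted and in sham arrays without overlap. The 3 other probe sets of Col1a1 differed by -0.41, -0.37 and 0.01 in infarcted hearts, none called, so the probe sets of this gene disagree on the size. Without MI9-1 and MI9-3 the difference of Col1a1 was again -1.1 but did not pass (adjusted p = 0.284). It was called under 13 of 20 alternative settings, with adjusted p from 0.00857 to 0.41.

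Col3a1, the type III collagen of young and compliant matrix, was next by p. It read 13.48, 13.11, 12.71 and 12.54 at 9 weeks, against 13.83, 13.9, 13.93 and 13.49 at 3 weeks after infarction, a difference of -0.83 ± 0.17 (adjusted p = 0.0905). In sham hearts it read 12.01 and 11.9 at 9 weeks, against 12.81 and 12.78 at 3 weeks, a difference of -0.84 ± 0.24. The difference over time was thus of similar size in sham and infarcted hearts, and infarcted hearts were above sham by 1.01 at 9 weeks and 0.99 at 3 weeks (adjusted p = 0.00903 and 0.0347). Its second probe set gave -0.57 in infarcted hearts. It passed under 6 alternatives, with -0.82 under quantile normalization, -0.77 with array weights, -1.14 with the replicate number as a block and -1, -0.88 and -0.93 without MI9-1, MI9-2 and MI3-6.

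Several other collagen and elastic fibre genes had values below 0, although none was called, while Col5a1 and Col12a1 gave 0.03 and 0.19. Col4a5, a chain of basement membrane collagen, read 10.75, 11.11, 10.4 and 10.75 at 9 weeks, against 11.36, 11.38, 11.61 and 11.45 at 3 weeks (-0.70 ± 0.152, adjusted p = 0.115), and its arrays did not overlap. Lum, lumican, which spaces collagen fibrils, and Eln, elastin, also had every array of 9 weeks below those of 3 weeks, with differences of -0.54 and -0.37. Col1a2, the partner chain of type I collagen, and Col5a2, which nucleates fibrils, differed by -0.41 and -0.43 with overlapping arrays. In sham hearts these 5 genes differed by -0.31, -0.35, 0.07, -0.16 and -0.16, in the order named.

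Of the 24 measured fibrillar collagen and matrix genes (of 32 listed), 18 had a value below 0 in infarcted and 19 in sham hearts, with medians of -0.12 and -0.10. In infarcted hearts 1 was called lower, and at an unadjusted p below 0.05 the list held 6 lower members and 1 higher. The higher member was Spp1, osteopontin, which was far higher in MI9-1 than in the other 3 arrays of 9 weeks. The infarction effect of the list had a median of 0.46 at 9 weeks and 0.53 at 3 weeks. The 11 fibroblast markers, 6 of which are also in the matrix list, held 1 called gene (Col1a1), with 5 lower and 0 higher at an unadjusted p below 0.05 and a median of -0.24 in infarcted and -0.16 in sham hearts. Without MI9-1 and MI9-3 the fibroblast median in infarcted hearts was -0.48. The summed intensity of these markers ranged from 61450 to 89810 in infarcted hearts at 9 weeks and from 87680 to 111800 at 3 weeks, and from 55270 to 55790 and 61930 to 64590 in the sham hearts of these times. Its part in the collagen values was not tested.

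**Figure D2:**
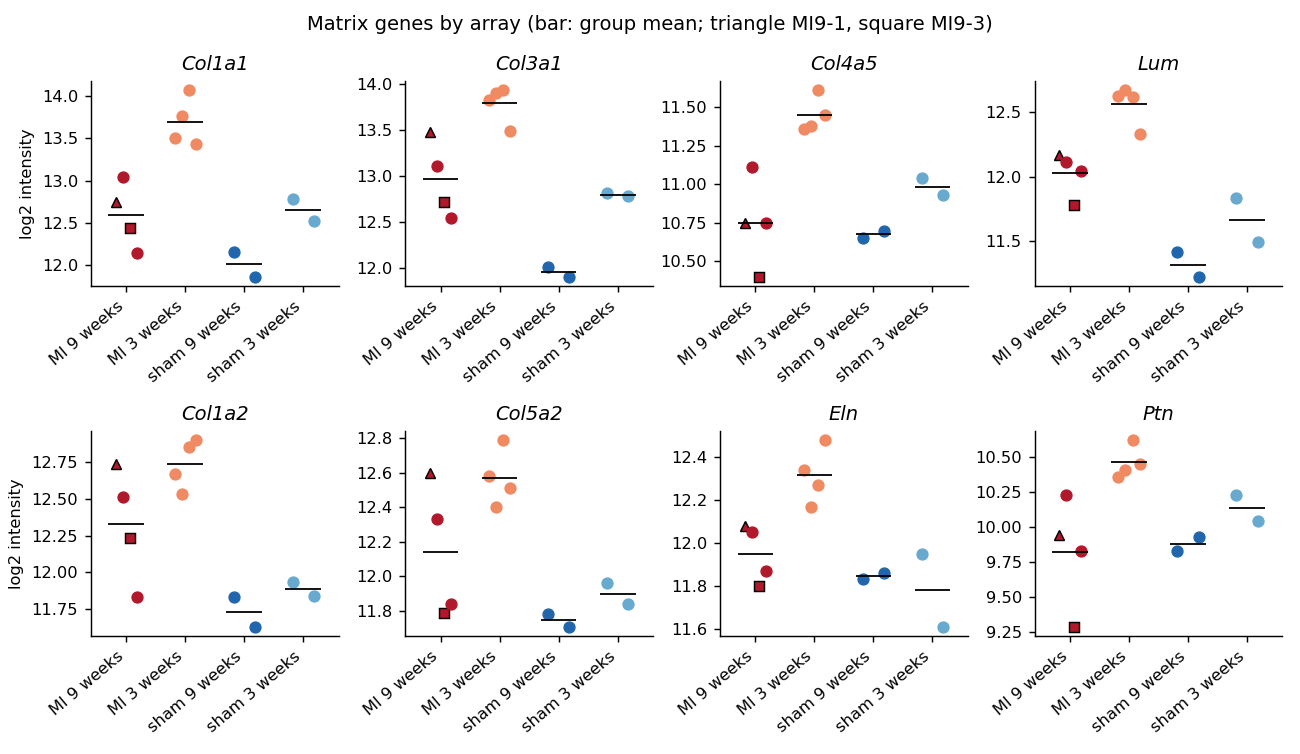
Log2 intensity of 8 matrix genes on each of the 12 arrays, with a bar at each group mean. For Col1a1, Col3a1, Col4a5, Lum, Eln and Ptn all 4 infarcted arrays of 9 weeks lie below all 4 of 3 weeks, while Col1a2 and Col5a2 overlap.

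Promoters of 3 of these collagen chains are shown because the values of all 3 chains were on the lower side at 9 weeks. Each runs from 250 bases before to 50 bases after the annotated start (RefSeq, rat build GRCr8), written 5′ to 3′ along the gene, with matches on either strand to the CCAAT box and to TATAAA in capitals. Col1a2 lies at chr4:33518307-33518606 on the plus strand, Col5a2 at chr9:55090102-55090401 on the minus strand and Col4a5 at chrX:109907109-109907408 on the plus strand. The 50 bases after the annotated start of Col1a2 open with atg. This start may thus be that of translation, with the start of transcription further upstream in the window.
Col1a2: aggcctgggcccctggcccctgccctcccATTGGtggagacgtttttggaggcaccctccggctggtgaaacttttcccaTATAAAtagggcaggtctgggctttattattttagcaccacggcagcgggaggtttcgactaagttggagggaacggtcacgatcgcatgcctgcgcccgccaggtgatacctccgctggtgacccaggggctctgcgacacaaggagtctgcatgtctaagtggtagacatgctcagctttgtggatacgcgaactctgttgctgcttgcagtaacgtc
Col5a2: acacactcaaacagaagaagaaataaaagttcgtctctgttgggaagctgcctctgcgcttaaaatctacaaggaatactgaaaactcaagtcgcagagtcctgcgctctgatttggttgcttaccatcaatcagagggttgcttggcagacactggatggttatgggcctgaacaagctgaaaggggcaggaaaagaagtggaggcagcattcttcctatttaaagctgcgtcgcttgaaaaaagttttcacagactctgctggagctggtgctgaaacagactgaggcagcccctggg
Col4a5: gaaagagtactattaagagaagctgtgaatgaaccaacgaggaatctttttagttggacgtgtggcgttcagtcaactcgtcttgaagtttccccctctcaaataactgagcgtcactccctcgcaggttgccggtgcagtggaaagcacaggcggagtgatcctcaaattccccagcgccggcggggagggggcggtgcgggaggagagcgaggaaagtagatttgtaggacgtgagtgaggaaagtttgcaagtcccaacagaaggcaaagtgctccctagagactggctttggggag
Col1a2 held 1 CCAAT box and 1 TATAAA, and these letters were not in the windows of Col5a2 and Col4a5. Of 33469 rat promoters of this length, 37.5% held CCAAT and 14.2% held TATAAA.

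The other genes with the smallest p that were lower at 9 weeks after infarction came from several cell functions, and none of them was called. Cd48, a leukocyte surface protein, read 11.33, 11.64, 10.92 and 11.64 at 9 weeks, against 12.16, 12.1, 12.27 and 11.99 at 3 weeks (-0.74, adjusted p = 0.115). Ptn, pleiotrophin, a heparin-binding growth factor, read 9.94, 10.23, 9.29 and 9.83, against 10.36, 10.41, 10.62 and 10.45 (-0.64). For both, the infarcted hearts of 3 weeks were the highest of the 4 groups, and those of 9 weeks lay near the sham arrays of 9 weeks. Infarcted minus sham hearts was -0.07 at 9 weeks and 0.51 at 3 weeks for Cd48, and -0.05 and 0.33 for Ptn. Also on this side were the nuclear receptor Rorb (-0.46), the complement regulator Cd46 (-0.50), the kinase Sgk2 (-0.35), the annexin Anxa3 (-0.52), the cAMP phosphodiesterase Pde3b (-0.39), the transcription factor subunit Gtf3c1 (-0.44) and the ribosomal protein gene Rpl30 (-0.64). Gse1 (-0.70), Prodh2 (-0.32) and Dpysl2 (-0.45) complete the 15 with the smallest p. Other probe sets gave 0.12 for Dpysl2, -0.15 for Gtf3c1, -0.21 for Anxa3 and -0.40 for Prodh2. Without MI9-1 and MI9-3 the differences were -0.49 for Cd48, -0.32 for Gse1, -0.23 for Sgk2, -0.29 for Anxa3, -0.22 for Gtf3c1 and -0.25 for Rpl30. Of these 15 genes 12 were below 0 in sham hearts too, where 63.32% of all 4736 genes were below 0.

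The 15 genes with the smallest p on the higher side at 9 weeks after infarction were likewise of varied function, and none was called. Hspb6, a small heat shock protein of muscle, read 14.59, 14.48, 14.79 and 14.54 at 9 weeks, against 14.21, 14.37, 14.16 and 14.23 at 3 weeks, without overlap (0.36 ± 0.0925, adjusted p = 0.241). Sham hearts differed by 0.10. The Z-disc and muscle proteins Csrp3 (0.42), Des (0.44) and Trim54 (0.60) were on this side, as were the carnitine carrier Slc25a20 (0.53), the mitochondrial aldehyde dehydrogenase Aldh2 (0.52) and Fam162a (0.58). So were choline kinase Chka (0.35), the Ras exchange factor Rasgrf1 (0.57), the neurotrophin Bdnf (0.29), Sult1c2a (0.47), Defb4 (0.32), Gzmf (0.51) and the olfactory receptor genes Or2t1 (0.52) and Or8g20e (0.56). The 6 other probe sets of Bdnf gave -0.28 to 0.11, those of Chka 0.51 and -0.07, that of Fam162a -0.04 and that of Hspb6 0.25. Without MI9-1 and MI9-3 the differences were 0.22 for Chka, 0.19 for Bdnf, 0.31 for Fam162a, 0.32 for Trim54 and 0.19 for Csrp3. Of these 15 genes 3 were above 0 in sham hearts. The 30 genes were picked by p in this comparison, so the lack of overlap between arrays in 24 of them is a description only.

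**Figure D3:**
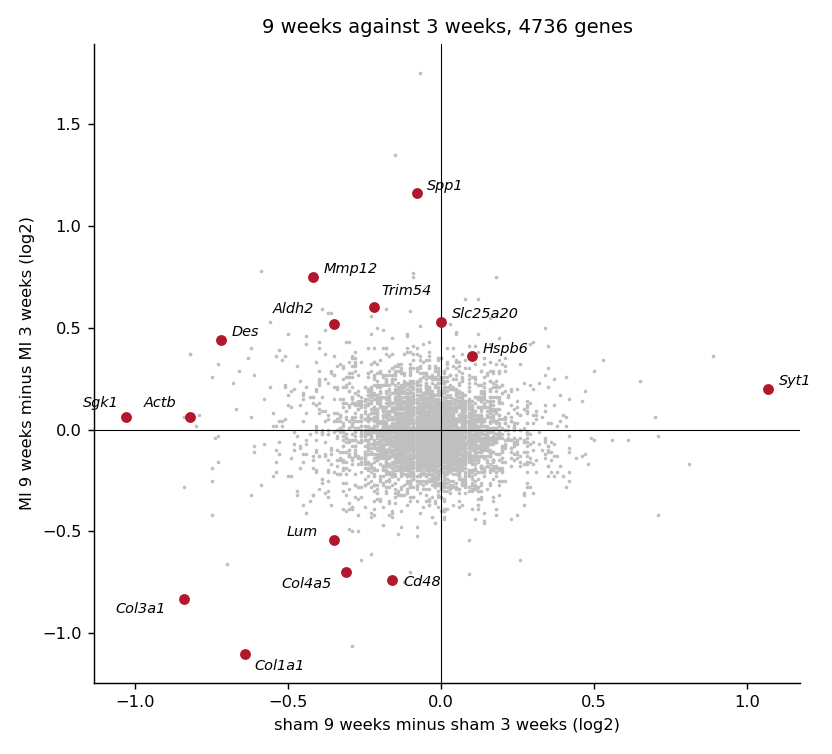
Log2 difference of 9 weeks against 3 weeks for 4736 genes, in infarcted hearts (vertical) against sham hearts (horizontal). Col1a1 and Col3a1 are low on both axes, Des is above 0 in infarcted and below 0 in sham hearts, and Spp1 is high in infarcted hearts alone.

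Across the 4736 genes the differences of infarcted and of sham hearts, which use no array in common, had a Pearson correlation of -0.04, and 50.3% of genes had the same sign. Genes were not independent of each other, and the 4 groups may share handling that the labels do not record. Among the 423 genes at an unadjusted p below 0.05 in infarcted hearts, 48.94% had the same sign in sham hearts. Col1a1 and Col3a1 had negative values in both kinds of heart. With 2 sham arrays of each time, a correlation this low cannot tell whether genes in general share a change with time.

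Between 9 and 3 weeks in sham hearts, the 6 genes each way with the smallest p were of varied function, and none was called. Actb, cytoplasmic beta-actin, read 13.29 and 13.3 at 9 weeks, against 14.22 and 14 at 3 weeks (-0.82 ± 0.172, adjusted p = 0.361), whereas infarcted hearts differed by 0.06. Sgk1, a kinase induced by corticosteroids, read 9.44 and 9.37, against 10.8 and 10.07 (-1.03). Des read 13.35 and 13.68, against 14.28 and 14.2 (-0.72). Among the 6 genes on the higher side, Syt1 read 8.76 and 7.39, against 6.96 and 7.06 (1.07), so it was high in MI9-5. Drd4 (0.46) was high in MI9-6 at 11.09 and Xylt2 (0.71) was low in MI3-2 at 9.88, while Zfp455l1 (0.61), Prss3b (0.36) and Agtr1b (0.29) did not rest on 1 array. The other probe sets of Agtr1b gave 0.05, 0.17 and -0.19. On the lower side Ptpre (-0.74) rested on 11.19 in MI3-2, with -0.17 at its other probe set, and Prp25l1 differed by -0.73.

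The difference between the infarction effects of 9 and of 3 weeks asks whether infarcted hearts changed apart from sham hearts. It called 0 of 8740 probe sets (0%), with 385 higher (4.41%) and 124 lower (1.42%) at an unadjusted p below 0.05, and 2 were called with array weights. Des, desmin, the intermediate filament that links the Z-discs of muscle cells, was closest. It read 14.79, 14.44, 14.45 and 14.44 in infarcted hearts at 9 weeks, against 14.42, 14.2, 13.89 and 13.84 at 3 weeks, and the arrays did not overlap. Infarcted minus sham hearts was 1.01 ± 0.155 at 9 weeks (adjusted p = 0.000249) and -0.15 ± 0.155 at 3 weeks (adjusted p = 1), and these effects differed by 1.17 ± 0.219 (adjusted p = 0.0739). With MI9-1 and MI9-3 left out the difference of effects was 1.08. It is made up of 0.44 in infarcted and -0.72 in sham hearts. The 7 smooth muscle markers, Des among them, had a median difference of -0.04 in infarcted and -0.09 in sham hearts. Their summed intensity ranged from 33240 to 42480 in infarcted hearts at 9 weeks and 27790 to 34790 at 3 weeks. In sham hearts it ranged from 22850 to 24890 at 9 weeks and 31350 to 31830 at 3 weeks. Des itself is a large part of this sum, so the sum is not a separate measure of smooth muscle. The part of smooth muscle in the Des values was not tested.

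Among the other 7 genes with the smallest p on the higher side, the difference of effects was 0.88 for Actb, 1.02 for Lgals1, a galactose-binding lectin of mesenchymal cells, 0.89 for the glycolytic enzyme Aldoa, 1.2 for the selenoprotein Selenow and 1.09 for the kinase Sgk1. None passed, with adjusted p from 0.547 to 0.548. In infarcted hearts alone these 5 genes differed by 0.06, 0.4, 0.36, 0.37 and 0.06, and in sham hearts by -0.82, -0.62, -0.54, -0.82 and -1.03. Thus Actb and Sgk1 differed in sham hearts with little difference in infarcted ones. In infarcted hearts Lgals1 differed by 0.14 and Selenow by 0.07 without MI9-1 and MI9-3. Rasgrf1 (0.93) and Rassf2 (0.98) complete the higher genes. On the lower side were Rpl30 (-0.90), Xylt2 (-0.74), Gtf3c1 (-0.67), Ankra2 (-0.67), Cacna1e (-0.63), Atp2b2 (-0.60), Hsd17b4 (-0.51) and Prss3b (-0.42), and in all 8 of them the sham difference was above 0. Other probe sets gave a difference of effects of 0.18 for Ankra2, 0.01, 0.18 and -0.22 for Atp2b2, 0.21, 0.09 and 0.14 for Hsd17b4 and -0.15 for Gtf3c1. That of Rpl30 was -0.51 without MI9-1 and MI9-3.

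Fatty acid oxidation genes lay mostly below sham hearts at both times, and their values in infarcted hearts were mostly higher at 9 than at 3 weeks, without a call. Over the 32 measured genes (of 37 listed) the infarction effect had a median of -0.13 at 9 weeks and -0.20 at 3 weeks. Infarcted hearts at 9 weeks minus those at 3 weeks had a median of 0.18 and sham hearts of 0.03. In infarcted hearts 23 members were above 0, 7 were higher and 1 lower at an unadjusted p below 0.05, and none was called. Without MI9-1 and MI9-3 the median was 0.06.

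Slc25a20, which carries acylcarnitines into mitochondria, read 12.51, 11.83, 12.37 and 11.82 at 9 weeks, against 11.66, 11.72, 11.42 and 11.63 at 3 weeks, and sham hearts read 12.01 and 12, against 11.89 and 12.13. All 4 arrays of 9 weeks were above those of 3 weeks, and MI9-1 and MI9-3 were above the sham arrays (difference 0.53 ± 0.14, adjusted p = 0.252). Without these 2 arrays it was 0.22. Acads, the short-chain acyl-CoA dehydrogenase, read 11.53, 11.25, 11.77 and 11.6, against 11.35, 11.32, 10.97 and 10.78 (0.43 ± 0.151), with overlap. The very-long- and medium-chain dehydrogenases Acadvl and Acadm differed by 0.38 and 0.34. Ech1, an auxiliary isomerase for unsaturated fatty acids, differed by 0.32, and the later steps Acaa2 and Hadha by 0.30 and 0.21. In sham hearts Acadvl, Acadm, Ech1, Acaa2 and Hadha differed by -0.28, 0.08, 0.11, 0.35 and -0.01. For Acaa2 the difference was thus of similar size in sham hearts, and infarcted minus sham hearts was -0.55 at 9 weeks and -0.50 at 3 weeks. Other enzymes of the cycle were near or below 0 in infarcted hearts, with 0.07 for Echs1, -0.05 for Hadh and -0.21 for Ehhadh. Acadvl differed by 0.15, Ech1 by 0.13 and Hadha by 0.09 without MI9-1 and MI9-3. Pdk4, the kinase that turns off glucose oxidation, read 11.42, 10.2, 10.97 and 10.44, against 10.45, 10.48, 10.07 and 10.04 (0.50), so its 2 high arrays were again MI9-1 and MI9-3, and without them it differed by 0.06. Ppara, the nuclear receptor that drives these genes, went the other way in the same arrays, at 8.66, 9.49, 8.42 and 9.54, against 9.32, 9.58, 9.41 and 9.63 (-0.46 ± 0.161, adjusted p = 0.404), and without them it differed by 0.03.

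**Figure D4:**
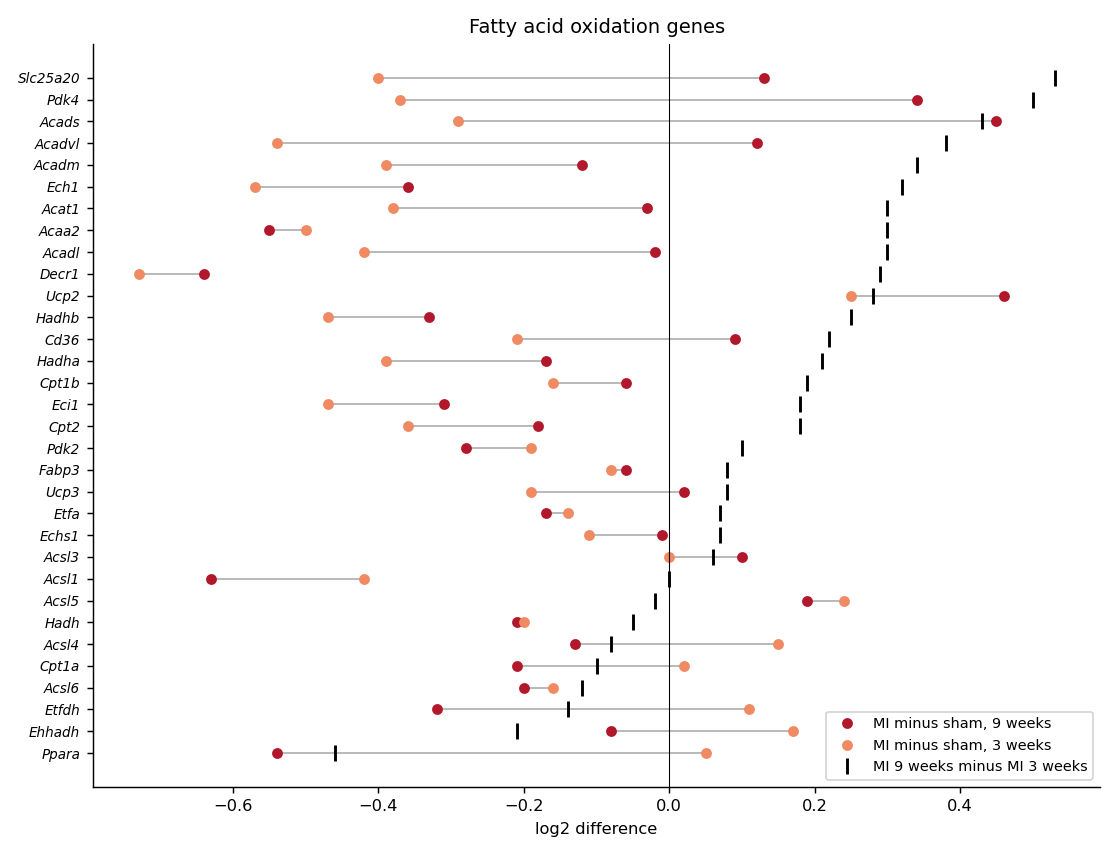
Log2 differences of the 32 fatty acid oxidation genes: infarcted minus sham hearts at 9 weeks (red) and at 3 weeks (orange), and infarcted hearts at 9 weeks minus those at 3 weeks (black ticks), ordered by the last. Most orange points lie below 0, and the ticks range from 0.53 for Slc25a20 to -0.46 for Ppara.

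Other energy genes had medians closer to 0. The 28 oxidative phosphorylation genes had a median of -0.02 in infarcted and 0.04 in sham hearts, with 0 higher and 3 lower at an unadjusted p below 0.05, namely Uqcrc2 of complex III (-0.28) and the cytochrome oxidase subunits Cox7b (-0.28) and Cox6a1 (-0.23). The other probe sets of Cox6a1 gave 0.06 and 0.02, and without MI9-1 and MI9-3 Uqcrc2 differed by -0.04 and Cox7b by -0.12. The 22 citrate cycle and pyruvate dehydrogenase genes had a median of 0.03, and the 22 glycolysis genes of 0.06. None was called in these lists.

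Muscle structure genes had a positive median, and a larger share was higher at an unadjusted p below 0.05 than over all probe sets, although none was called. Of 16 sarcomere and Z-disc genes 4 were higher and 0 lower at that level, where all probe sets gave 4.23% and 5.11%. The median was 0.08 in infarcted and 0.06 in sham hearts. The list includes Tpm1, Tnni3 and Actc1, in which a change could not be measured. Csrp3, the stretch-related muscle LIM protein, read 14.55, 13.86, 13.98 and 13.77 at 9 weeks, against 13.46, 13.58, 13.6 and 13.85 at 3 weeks (0.42 ± 0.12, adjusted p = 0.262), and without MI9-1 it differed by 0.25. Tcap, telethonin, which caps titin, read 14.13, 13.85, 13.79 and 13.96, against 13.84, 13.62, 13.4 and 12.95 (0.48 ± 0.155). Myh6, the fast alpha-myosin heavy chain, gave 0.52, which rested on 13.69 in MI3-4 alone. The other probe sets of Myh6 gave 0.07 and 0.03.

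Calcium handling genes had a median of 0.01 in infarcted and -0.01 in sham hearts over 25 genes, with 2 higher and 1 lower at an unadjusted p below 0.05. Atp2a2, the calcium pump of the sarcoplasmic reticulum, differed by 0.01, with -0.23 to 0.15 at its other probe sets. The value of 0.01 came from a probe set that read 15.34 to 15.81 log2 in infarcted hearts. The highest values of these arrays were 15.48 to 15.99, so a change had little room on the scale. Pln, the inhibitor of this pump in the sarcoplasmic reticulum, differed by 0.02, and by 0.17 without MI9-1 and MI9-3. Casq2, which stores calcium there, read 12.98, 12.89, 13.31 and 12.66 at 9 weeks, against 12.62, 12.73, 12.68 and 12.35 at 3 weeks (0.36 ± 0.157, adjusted p = 0.495), a difference of 0.18 without MI9-1 and MI9-3. Among ion transport genes the sodium pump subunit Atp1b1 read 13.45, 13.54, 13.13 and 13.43, against 13.66, 13.8, 14.07 and 13.79 (-0.44 ± 0.134, adjusted p = 0.311), without overlap, and sham hearts differed by 0.11. Its other probe sets gave -0.31 and -0.09. The 21 channel and pump genes had a median of -0.04.

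Protective enzymes and chaperones were on the higher side. The 24 chaperones had a median of 0.12 in infarcted and -0.01 in sham hearts, with 3 higher and 0 lower at an unadjusted p below 0.05, and the 26 antioxidant genes had medians of 0.09 and -0.10 with 3 higher and 0 lower. Hspb1, heat shock protein 27, read 14.47, 13.83, 14.01 and 13.99 at 9 weeks, against 14.02, 13.74, 12.8 and 13.15 at 3 weeks (0.64 ± 0.201, adjusted p = 0.342). Its other probe sets gave 0.38, 0.20 and -0.12. Cat, catalase, which breaks down hydrogen peroxide, read 11.73, 11.59, 11.86 and 11.6, against 11.3, 11.55, 10.28 and 11.29 (0.59 ± 0.234), without overlap and with MI3-5 low. Its other probe sets gave 0.49 and -0.07. The median over chaperones without MI9-1 and MI9-3 was 0.02, and over antioxidant genes 0.02.

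The remaining lists held 0 called members and had medians between -0.07 and 0.08 in infarcted hearts. These were matrix proteases and inhibitors, the TGF-beta family, neurohormonal receptors, complement and inflammation, interferon response, cell cycle, immediate early, clock, hypoxia, insulin-like growth factor and ribosomal genes. The insulin-like growth factor list had 3 members lower at an unadjusted p below 0.05, namely Igfbp1 (-0.47), Igfbp2 (-0.28) and Irs2 (-0.24). The other probe sets of Igfbp2 gave 0.04 and -0.10 and those of Irs2 gave 0.04, -0.07 and -0.11, and without MI9-1 and MI9-3 Igfbp1 differed by -0.31 and Igfbp2 by -0.11. Vegfb, Hif1a, Hmox1 and Nos3 of the hypoxia list were higher at that level, by 0.43, 0.32, 0.26 and 0.40, the last resting on 9.34 in MI3-4, with 0.01 to 0.10 at its other probe sets. Hif1a differed by 0.11 and Hmox1 by 0.17 without MI9-1 and MI9-3. Egr1, an immediate early factor, differed by -0.66 in infarcted and -0.70 in sham hearts, but its other probe sets gave -0.19, 0.08 and 0.09 in infarcted hearts, and it differed by -0.27 without MI9-1 and MI9-3. Maoa, a monoamine oxidase, differed by 0.34 in infarcted and 0.53 in sham hearts, and by 0.20 in infarcted hearts without MI9-1 and MI9-3.

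**Figure D5:**
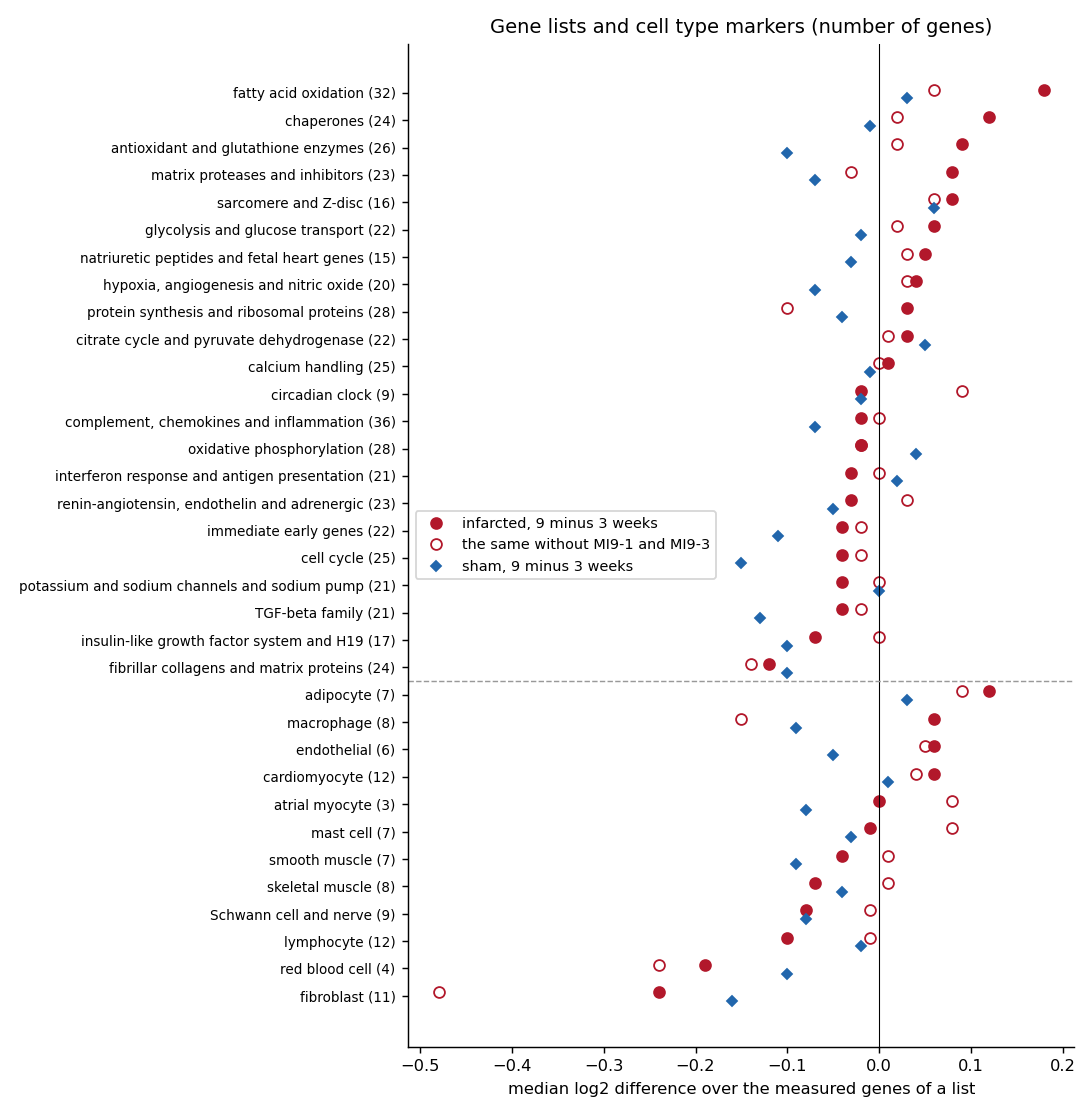
Median log2 difference of 9 weeks against 3 weeks over the genes of each list, for infarcted hearts (red), the same without MI9-1 and MI9-3 (open) and sham hearts (blue), with cell type markers under the dashed line. Fatty acid oxidation has the highest median in infarcted hearts at 0.18 and the fibroblast markers have the lowest at -0.24.

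Some genes of macrophages and wound matrix differed widely among the infarcted hearts of 9 weeks, with MI9-1 highest. Spp1, osteopontin, a matrix protein made by macrophages and injured muscle, read 12.3 in MI9-1 and 9.34, 9.17 and 8.9 in MI9-2 to MI9-4, against 8.67, 8.9, 9.01 and 8.5 at 3 weeks. Sham hearts read 7.31 and 7.74 at 9 weeks, against 7.78 and 7.44 at 3 weeks. The difference of 1.16 ± 0.462 in infarcted hearts (adjusted p = 0.457) was 0.36 without MI9-1. Lyz2, macrophage lysozyme, read 14.58 in MI9-1 and 12.81, 12.47 and 11.81 in the others, against 12.58, 12.45, 13.07 and 12.95 at 3 weeks. Mmp12, the macrophage elastase, read 8.61 in MI9-1 and 6.84, 6.68 and 6.8 in the others, against 6.4, 6.58, 6.08 and 6.87. Without MI9-1 Mmp12 differed by 0.29 in place of 0.75, and Lyz2 by -0.40 in place of 0.15.

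Postn, periostin, made by activated fibroblasts, was widely spread over the pools of 9 weeks, with 11.11, 9.81, 8.3 and 7.82 in MI9-1 to MI9-4, against 9.33, 9.14, 9.49 and 9.73 at 3 weeks and 6.81 to 7.59 in sham hearts. The pools of 9 weeks thus spanned a range that reached from near the sham arrays to far above every array of 3 weeks, and its difference was -0.16 with all arrays and -0.60 without MI9-1 and MI9-3. Timp1, an inhibitor of matrix proteases, read 12.63, 12.01, 11.56 and 11.6, against 11.7, 11.64, 11.89 and 11.95, and was again highest in MI9-1. The summed intensity of the 8 measured macrophage markers (of 13 listed) was 46380 in MI9-1 and 14850 to 19620 in the other 3, against 18030 to 22740 at 3 weeks, 13150 to 13730 in sham hearts at 9 weeks and 12620 to 13620 at 3 weeks. The median difference of these markers was 0.06 with all arrays and -0.09 without MI9-1. Where MI9-1 was highest for Spp1, Lyz2 and Postn, it was not so for Col1a1, at 12.75 beside 13.04 in MI9-2.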

How the data were processed

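Total RNA from pooled left ventricles was hybridised to Affymetrix RGU34A arrays, 1 pool per array. The authors deposited 1 intensity per probe set and array, made in dChip by invariant-set normalization and a model that used perfect-match probes alone. Values were raised to at least 16 and log2 transformed, since 29 of 104880 values of the 12 arrays lay below 16. limma (version 3.58.1, R 4.3.3) was fitted with 1 mean for each of 20 groups over 46 arrays, which share an estimate of the spread, and two-sided p-values were Benjamini-Hochberg adjusted over 8740 probe sets and called below 0.05. The procedure was tested on simulated data with independent values and, for each probe set, the same spread in all groups. That test does not cover the wider spread among the infarcted hearts of 9 weeks. Of the probe sets, 7006 had 1 gene symbol, 308 had several and 1426 had none, and a gene was represented by its probe set with the highest mean log2 value. Named by rule were the 15 genes each way with the smallest p between 9 and 3 weeks after infarction, 6 each way in sham hearts, 8 each way for the difference of effects, and called members plus up to 4 examples per list. Nppb, Acta1, Postn, Timp1, Col1a2, Col5a2, Eln, Acadm, Acadvl, Hadha, Hadh, Echs1, Ehhadh, Acaa2, Col5a1, Col12a1, Ech1, Atp2a2, Pln, Uqcrc2, Vim, Tpm1, Tnni3, Actc1, Penk, Cidea, Igkv28, Ctse and Dnajc17 were named after their values were seen. Members and lists were chosen with earlier results of these data known. Alternatives were the 12 arrays alone, floors of 1 and 64, a mean of at least 100, quantile normalization, array weights, the replicate number as a block, each array left out and, for lists, the mean over probe sets. The number of arrays limits the precision.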

Additional observations from a re-analysis of the deposited data

Results flagged for a closer look

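In groups of 4 arrays, 1 array was taken to lie apart when its distance to the nearest other array as a share of the group's range exceeded Dixon's critical value for 4 values at 95%. This held in 22 of 374 groups, made of 187 genes in the infarcted hearts of each time. Genes named after their values were seen are among them, such as Igkv28, Ctse and Dnajc17. The count is therefore a description only and cannot be set against a chance rate.

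At 9 weeks after infarction MI9-1 was high for Des (0.961 of the range, 14.79 log2), Spp1 (0.87, 12.3), Mmp12 (0.92, 8.61) and the complement factor Cfd (0.841, 10.69). MI9-3 was high for Bdnf (0.871, 11.21). It was low for the calcium release channel Itpr3 (0.919, 10.85), the potassium channel Kcnk1 (0.834, 7.82), the replication helicase Mcm6 (0.883, 9.44), the clock gene Per2 (0.839, 7.46) and the insulin receptor substrate Irs2 (0.908, 9.88).

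At 3 weeks after infarction MI3-4 was low for Myh6 (0.945, 13.69), Fstl1 (0.925, 12.92), Nos3 (0.923, 9.34), Myh4 (0.885, 8.44) and Igkv28 (0.95, at the floor of 4), and high for Acaa2 (0.92, 13.73) and Dnajc17 (0.956, 12.04). MI3-5 was low for the angiotensin receptor Agtr2 (0.903, 7.65) and high for Vim (0.858, 13.21). MI3-6 was low for Lum (0.848, 12.33) and Per2 (0.834, 7.59), and MI3-3 was low for Ctse (0.977, at the floor of 4).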

How the results depend on the processing

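Between 9 and 3 weeks after infarction 2 probe sets were called, against 0 when only the 12 arrays were fitted (763 at an unadjusted p below 0.05), 22 with array weights and 0 without MI9-1 and MI9-3 together (250 at an unadjusted p below 0.05), a setting chosen after seeing the data. Floors of 1 and 64 and the minimum mean of 100 gave 2, and quantile normalization gave 3. Leaving out 1 array gave 0 to 9 calls, with 0 without MI9-3, MI9-4, MI3-3, MI3-4 or MI3-5 and 9 without MI9-2. In sham hearts the count of 0 became 2 with array weights and 0 to 11 with 1 array left out, namely 6, 11, 3 and 6 without MI9-5, MI9-6, MI3-1 and MI3-2. A lone sham array was assumed to vary like the other groups. For the difference of effects it became 2 with array weights and 0 to 6 with 1 array left out, 5, 6, 5 and 5 without the same sham arrays and 1 without MI3-3. The cause was not tested. Without MI9-6 the sham difference of Drd4 was -0.02, and without MI9-5 it was 0.95.

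With the replicate number as a block, 3 probe sets were called between 9 and 3 weeks after infarction, and 0 in the other comparisons. The infarcted groups share numbers 3 and 4 alone, with deviation correlations of 0.15 and 0.12, and the labels tie no animals together. Under the block Prss3b differed by -0.02 in sham hearts and its difference of effects was 0.14. Over named genes and alternatives 1140 values stayed on the same side of the threshold and in the same direction, 23 passed in addition, 14 no longer passed and 3 changed sign. Almost all named genes were not called to begin with, so staying on the same side mostly meant staying uncalled. The 14 values belonged to Col1a1 and U75405UTR#1_f_at, each called under 13 of 20 settings. Of the list medians 458 moved by less than their spread and 52 by more.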

Other observations

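Penk and Cidea, which are in none of the lists above, differed by more than most genes between 9 and 3 weeks after infarction. Penk encodes proenkephalin, the precursor of opioid peptides that the heart makes as well as the brain. It read 12.67, 11.59, 12.14 and 11.45 log2 at 9 weeks, against 11.66, 11.07, 10.71 and 11.28 at 3 weeks after infarction, and 11.2 and 11.17 in sham hearts at 9 weeks, against 11.74 and 11.81 at 3 weeks. Its difference was 0.78 in infarcted and -0.59 in sham hearts, and the difference of effects was 1.37 (limma adjusted p = 0.559). Cidea, a lipid droplet protein, read 11.86, 10.9, 11.65 and 10.98 at 9 weeks, against 11.29, 10.91, 10.32 and 9.78 at 3 weeks (0.77, limma adjusted p = 0.381). For both genes MI9-1 and MI9-3 were the highest arrays, and without them Penk differed by 0.34 and Cidea by 0.37.

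Igkv28 (1.75), Ctse (1.35) and Dnajc17 (-1.06) had larger differences, each through 1 array of 3 weeks. These were 4 in MI3-4 beside 9.04 to 9.31 for Igkv28, 4 in MI3-3 beside 8.72 to 8.83 for Ctse, and 12.04 in MI3-4 beside 8.36 to 8.53 for Dnajc17.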
